A study of Homo sapiens with 6 samples.

Results

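Interferon stimulated genes were examined in mRNA-seq data of Kasumi-1 cells, a human acute myeloid leukemia line with the RUNX1-RUNX1T1 fusion gene. The group holds 43 genes, listed by symbol and matched by Ensembl identifier, and all 43 were found among the 29810 genes of the deposited table. The study compared 3 control libraries with 3 libraries of cells incubated with 0.25 μM I3, an inhibitor of histone deacetylases, and the labels give 48 h for both. Per the study's methods, the control received the solvent DMSO at the same concentration. Every library came from the same cell line, and the labels number the samples without saying whether they were separate cultures, so p-values measure only the spread between these libraries, which may be technical. The labels name no added interferon in either group.

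Values are FPKM, the fragments counted on a gene divided by the length of its exons and by the total of the library. The library totals that these values were divided by were 17663212, 17798678 and 17500320 reads for control 1, 2 and 3 and 17818414, 17794813 and 18193371 reads for I3 1, 2 and 3. They were worked out from the FPKM and are not the number of reads sequenced. Reads rebuilt for each gene summed to slightly more, 17824273 to 18533221 per library. On 1 kb of exon, 1 read was worth 0.0550 to 0.0571 FPKM. Intervals on reads given here cover counting error only. In bulk RNA, fewer cells with a transcript and less of it per cell cannot be told apart. The libraries carried the markers of the line, with KIT at 198 to 225 FPKM, CD34 at 28.9 to 38.8 FPKM and RUNX1T1 at 14.1 to 17.0 FPKM.

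Type I interferon binds the receptor chains IFNAR1 and IFNAR2, which activate the kinases TYK2 and JAK1. These phosphorylate STAT proteins such as STAT2, which joins IRF9 in the complex ISGF3. ISGF3 enters the nucleus and binds interferon stimulated response elements in the promoters of its target genes. The targets encode sensors of viral RNA, enzymes that degrade or edit RNA, proteins that bind foreign RNA or block viral entry, and the ubiquitin-like protein ISG15 with its ligases. Many cells transcribe some of these genes at a low level without added interferon.

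The core of that response element was searched on both strands as GAAANNGAAA, in promoter windows of 300 bases (RefSeq, GRCh38.p14). Each window covers a start assigned to its gene and mostly the sequence before that start. For some members, such as ISG15 and RSAD2, the covered start lies inside the annotated gene and not at its first base. The core was present for 22 of the 34 members that have a window, or 64.7%, against 4.38% of all 27305 genes with a window. The short stretches below hold it, in capitals, for the 4 tested members that stood furthest above the other 5 libraries in control 1 (IFI6, BST2, IFIT1 and ISG15), for HERC5 as an abundant member, and for IFI27 as a member near 0. Each is read 5′ to 3′ on the strand of its gene, so a match on the other strand appears as TTTCNNTTTC.
IFI6, chr1:27672261-27672363, minus strand: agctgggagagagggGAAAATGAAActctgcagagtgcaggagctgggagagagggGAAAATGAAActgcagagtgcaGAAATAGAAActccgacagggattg
BST2, chr19:17405730-17405775, minus strand: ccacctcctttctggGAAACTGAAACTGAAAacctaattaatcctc
IFIT1, chr10:89392492-89392544, plus strand: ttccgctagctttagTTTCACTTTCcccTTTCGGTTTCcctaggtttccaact
ISG15, chr1:1013369-1013414, plus strand: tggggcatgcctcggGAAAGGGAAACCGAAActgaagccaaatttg
HERC5, chr4:88456979-88457069, plus strand: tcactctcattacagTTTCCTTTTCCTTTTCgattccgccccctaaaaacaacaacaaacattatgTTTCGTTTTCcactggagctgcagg
IFI27, chr14:94110613-94110665, plus strand: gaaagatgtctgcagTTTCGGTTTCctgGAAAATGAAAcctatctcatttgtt

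IFI6 and HERC5 hold 3 matches each, and the other 4 hold 2. In ISG15 and BST2 the matches overlap by 4 bases, and in HERC5 the first pair does. None of the 6 stretches touches an exon of its gene in GENCODE 29. The stretches of IFI6, BST2, IFIT1 and HERC5 lie before the annotated gene, and those of ISG15 and IFI27 lie in an intron of a longer transcript. A second motif, TTCNNNGAA, to which STAT dimers are known to bind, was in the windows of 10 of the 34 members (29.4%) and of 9.38% of all genes with a window. Among the 6 stretches, its letters overlap a response element in BST2 and in IFI27. No window was at hand for TRIM22, USP18, DHX58, IFIT2, IFITM2, OASL, OAS2, IRF7 and MX2. A match describes the letters only and shows no binding.

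The members spread over the whole range of levels in these cells. Of the 43, 5 had a mean of at least 10 FPKM over the 6 libraries, 17 lay from 1 to 10 FPKM, 5 from 0.5 to 1 FPKM, 9 from 0.1 to 0.5 FPKM and 7 below 0.1 FPKM. Across all listed genes, the shares of genes in the same ranges were 13.8%, 23.6%, 6.06%, 17.1% and 39.4%. The test used genes with a mean of at least 0.5 FPKM, so 27 members were tested and 16 were not.

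**Figure D1:**
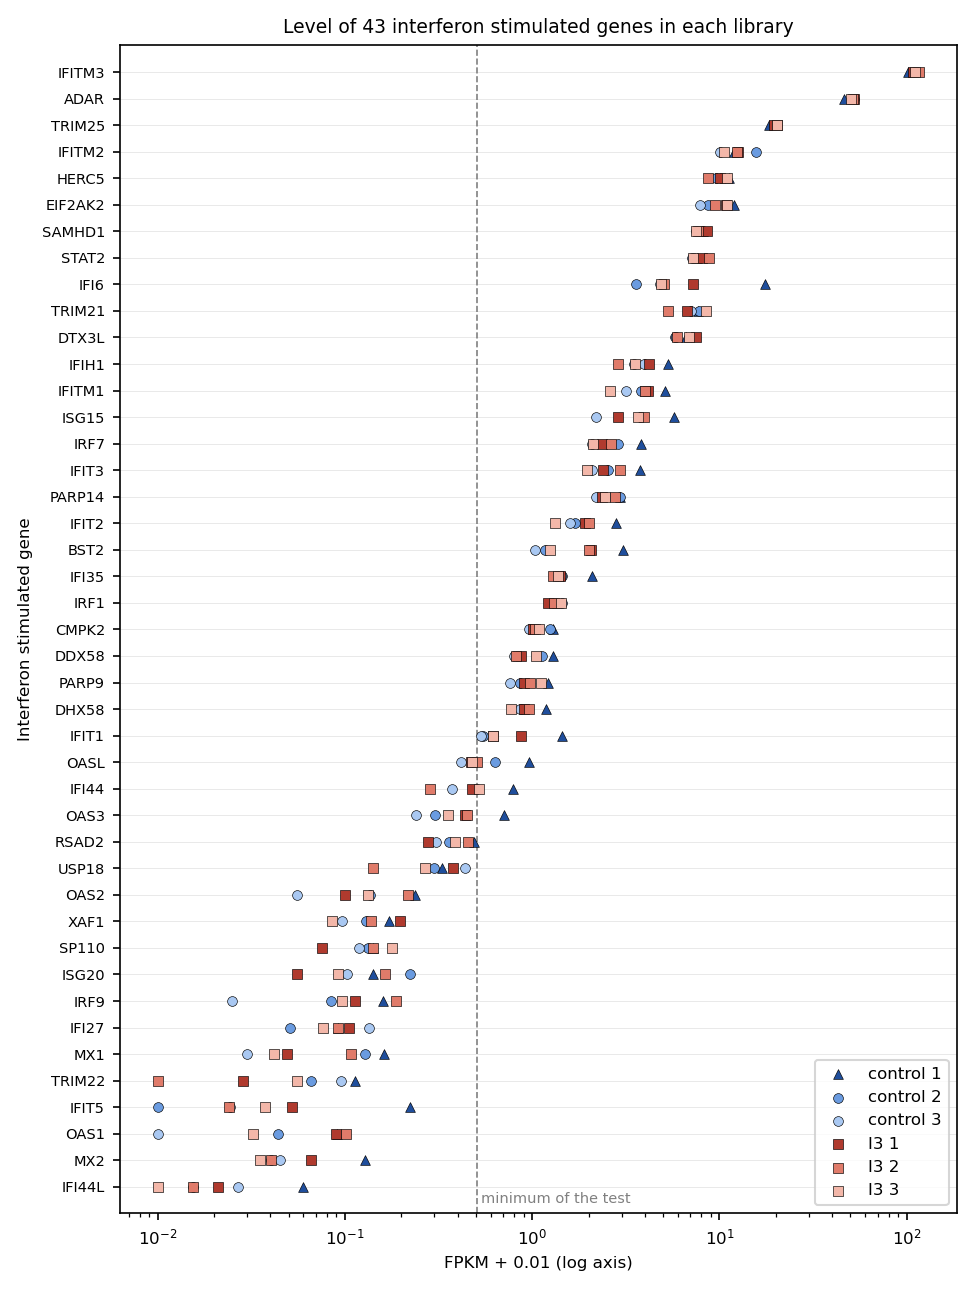
Level of each of the 43 members in each of the 6 libraries, as FPKM + 0.01 on a log axis, with 1 row per gene in the order of the mean. IFITM3 stands at the top near 110 FPKM and IFI44L at the bottom, the dashed line marks the minimum of 0.5 FPKM of the test, and the triangles of control 1 lie to the right of the other symbols in most rows between 0.5 and 10 FPKM.

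The 5 most abundant members were IFITM3, ADAR, TRIM25, IFITM2 and HERC5. IFITM3, a membrane protein that hinders the fusion of viruses with the cell, had 102, 114 and 109 FPKM in control 1, 2 and 3 and 108, 116 and 110 FPKM in I3 1, 2 and 3. ADAR, which edits adenosine in double-stranded RNA, had 46.2, 51.0 and 52.1 FPKM in the controls and 52.0, 51.6 and 50.4 FPKM after I3. For both genes control 1 was the lowest library and the groups overlapped, and for ADAR the other 5 libraries lay close together. TRIM25, the ubiquitin ligase that acts on RIG-I, had 18.3, 19.9 and 19.5 FPKM in the controls and 19.6, 20.4 and 20.2 FPKM after I3. Here too control 1 was lowest and the groups overlapped.

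HERC5, the ligase that attaches ISG15 to proteins, had 11.3, 9.60 and 10.2 FPKM in the controls and 10.1, 8.73 and 10.9 FPKM after I3. IFITM2, a relative of IFITM3, had 12.0, 15.7 and 10.04 FPKM in the controls and 12.5, 12.3 and 10.6 FPKM after I3. Neither gene separated the groups, and for IFITM2 both the highest and the lowest value came from the controls. The next members in the order of the mean were EIF2AK2, SAMHD1 and STAT2. EIF2AK2 encodes PKR, a kinase that double-stranded RNA activates, and had 11.9, 8.63 and 7.90 FPKM in the controls and 10.8, 9.47 and 10.9 FPKM after I3. SAMHD1, which hydrolyzes deoxynucleotides, had 8.16, 7.51 and 8.14 FPKM in the controls and 8.57, 7.69 and 7.50 FPKM after I3. STAT2 had 7.61, 7.14 and 7.28 FPKM in the controls and 8.03, 8.78 and 7.18 FPKM after I3. The groups of all 3 overlapped, EIF2AK2 had its highest value in control 1, and the values of each overlapped with those of its neighbour in this order. In contrast, the ranges of IFITM3, ADAR, TRIM25 and IFITM2 lay apart from one another.

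Of STAT2 and IRF9, which meet in ISGF3, STAT2 was present throughout and IRF9 was listed near 0. IRF9 (chr14:24161053-24166565, GENCODE 29) had 0.149, 0.0740 and 0.0151 FPKM in the controls and 0.104, 0.178 and 0.0869 FPKM after I3, from 10, 5 and 1 reads in the former and 7, 12 and 6 reads in the latter. The whole of the main IRF9 transcript, 1838 nt, is also covered on the same strand by exons of a second annotated gene, AL136295.5, itself listed at 0.0937 FPKM on average. The sources used here do not say how reads shared by both genes were counted, so the IRF9 values cannot be read as absence of its mRNA. The groups overlapped for both genes.

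Families that sit side by side in the genome held very different levels. IFITM1, IFITM2 and IFITM3 lie within 19906 nt of each other on chromosome 11, counted between gene starts, with means of 3.80, 12.2 and 110 FPKM. The IFITM values are uncertain as to the member, since IFITM1 shares 41.1% of its main transcript with annotated exons of IFITM2, and 32% of the 50-base words of IFITM1, 34.1% of IFITM2 and 17.4% of IFITM3 occur in other genes. On chromosome 10, IFIT3, IFIT2, IFIT1 and IFIT5, whose proteins bind foreign RNA, had means of 2.60, 1.88, 0.762 and 0.0515 FPKM. On chromosome 12, the 2′-5′ oligoadenylate synthetases OAS3, OAS2 and OAS1 had 0.404, 0.136 and 0.0511 FPKM.

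PARP9 and DTX3L, which form a complex of an ADP-ribosyltransferase and a ubiquitin ligase, start 339 nt apart on opposite strands of chromosome 3. The same response element lies in the windows of both. Its first base is at position -6 from the start covered by the window of DTX3L, and at -41 from that of PARP9. Their mean levels were 6.43 FPKM for DTX3L and 0.960 FPKM for PARP9. RSAD2, the antiviral enzyme viperin, and CMPK2, a mitochondrial nucleotide kinase, start 829 nt apart on opposite strands of chromosome 2. These had 0.368 and 1.09 FPKM.

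Several genes often used as readouts of interferon were among the lowest. MX1, a GTPase against influenza virus, had 23, 18 and 3 reads in the controls and 6, 15 and 5 reads after I3. IFI44L had 9, 1 and 3 reads in the controls and 2, 1 and 0 reads after I3, and IFI27 had 6, 3 and 9 against 7, 6 and 5 reads. MX2, a relative of MX1, had 27, 7 and 8 reads against 13, 7 and 6 reads. These counts overlapped between the groups and are too small to show a difference of moderate size. Of the other untested members, IFI44 and USP18, the protease that removes ISG15, had means of 0.482 and 0.30 FPKM, and XAF1, SP110 and the exonuclease ISG20 had 0.126, 0.121 and 0.120 FPKM. USP18 shares 23.4% of its 50-base words with other genes, and 70.0% of the main XAF1 transcript is overlapped by a gene on the opposite strand. The 16 untested members together had 367, 216 and 161 reads in the controls and 210, 241 and 200 reads after I3, with control 1 highest.

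The first comparison asked whether I3 moved the group. No member passed the test, and the log2 fold changes were small. With limma, 0 of the 27 tested members were called at an adjusted p of 0.05 with a log2 fold change of at least 0.58, and 0.0% of the 12960 tested genes were called. This fit called no gene at all, so the 0 is not particular to the members. The study reported changed genes in both directions at these thresholds with DESeq. At an unadjusted p of 0.05 the count was again 0 of 27, beside 4.93% of all tested genes, with 2.08% above and 2.85% below the control. The smallest unadjusted p of a member was 0.209, for IFIH1, with an adjusted p of 0.998 in limma. The same count by voom (limma) on rebuilt reads, an alternative added once the values were known, gave 0 of 37 members at an unadjusted p of 0.05 and 0 at the adjusted p. Of these 37 estimates 36 lay within 0.58, and the largest, for ISG20, was 0.70 in size.

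Of the 27, 8 members had a higher and 19 a lower mean after I3, and 45.8% of all tested genes were lower. The median log2 fold change of the members was -0.075, and that of all tested genes was 0.011. All 27 estimates lay within 0.58 in size, and for 17 members the whole 95% interval did. The widest interval was that of IFI6, from -1.44 to 0.94, which reaches past 0.58 in both directions. These statements on direction rested on control 1: without it, 16 of 26 members were higher and 10 lower after I3, and the median was 0.008.

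**Figure D2:**
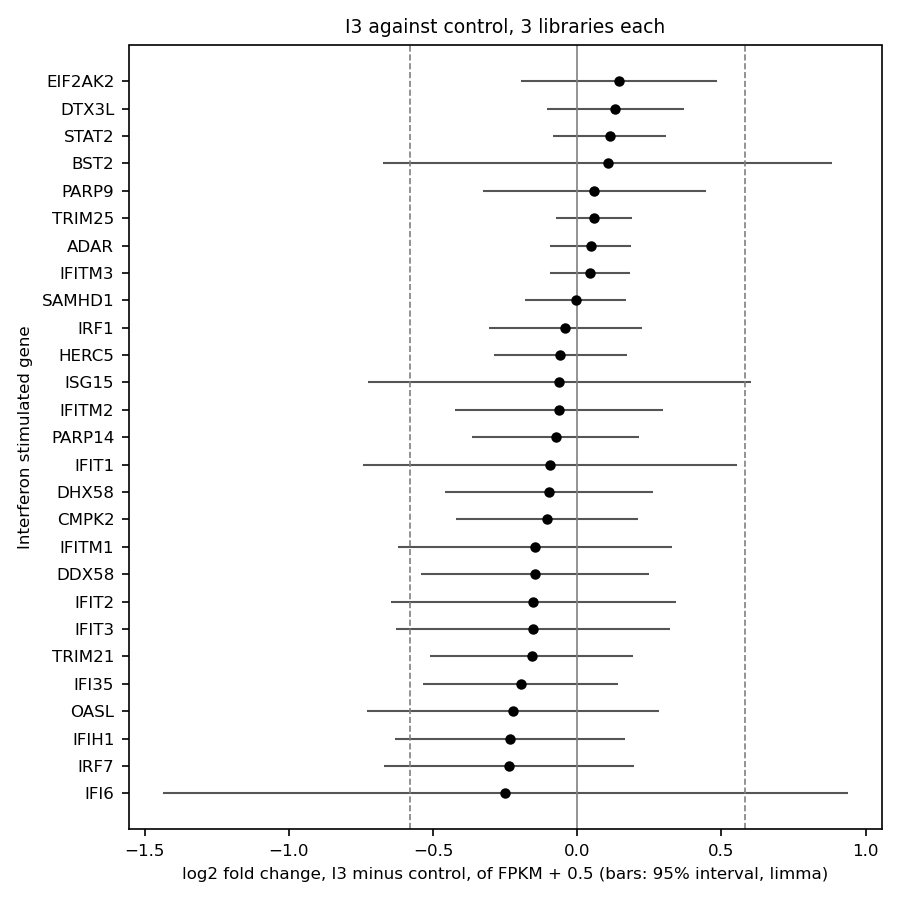
log2 fold change of each of the 27 tested members, I3 minus control on log2(FPKM + 0.5), with 1 row per gene. Points are limma estimates, bars are 95% intervals, and dashed lines mark 0.58 in either direction. All 27 points lie between the dashed lines, and every bar crosses 0.

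A gap between the groups was seen for 1 of the 27 tested members, IFI35, which was lower after I3. Over all tested genes this share was 9.7%, with 5.06% higher and 4.64% lower. IFI35, an interferon induced protein with a leucine zipper, had 2.07, 1.42 and 1.42 FPKM in the controls and 1.39, 1.28 and 1.37 FPKM after I3. Control 1 stood apart, and the other 2 controls exceeded the highest I3 library by a margin smaller than the worth of a few reads, with 50 and 49 reads against 49 in I3 1. On the log2 scale the difference was -0.20 ± 0.145 (standard error), with an adjusted p of 0.998 in limma and an exact permutation p of 0.1, the smallest that 3 against 3 libraries allow. Without control 1 it was -0.06, and after removal of the GC trend of each library the groups of IFI35 overlapped. The groups also did not overlap for TRIM22, an antiviral ubiquitin ligase below the minimum of the test. It had 11, 6 and 9 reads in the controls and 2, 0 and 5 reads after I3, and the ratio of all I3 to all control reads was 0.265 with a 95% interval of 0.0971 to 0.627. In the fit without a minimum its unadjusted p was 0.0353 and its adjusted p 0.898, and 12.1% of its 50-base words occur in other genes.

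The members with the smallest unadjusted p were IFIH1, IFI35, STAT2, DTX3L, IRF7, TRIM21, TRIM25 and OASL, with p from 0.209 to 0.335. IFIH1, the RNA sensor MDA5, had 5.30, 3.5 and 3.96 FPKM in the controls and 4.20, 2.88 and 3.51 FPKM after I3. IRF7, which drives transcription of interferon genes, had 3.81, 2.86 and 2.09 FPKM in the controls and 2.35, 2.61 and 2.09 FPKM after I3. OASL, a relative of the oligoadenylate synthetases, had 0.95, 0.623 and 0.406 FPKM in the controls and 0.463, 0.495 and 0.469 FPKM after I3. For all 3 control 1 was the highest library, and control 3 was below the highest I3 library, so the groups overlapped. The log2 fold changes were -0.23 for IFIH1 (95% interval -0.63 to 0.16), -0.24 for IRF7 (-0.67 to 0.20) and -0.22 for OASL (-0.73 to 0.28). Without control 1 they were -0.08 for IFIH1 and -0.05 for IRF7, and OASL fell below the minimum. Without I3 2 IFIH1 was -0.11, and without control 3 IRF7 was -0.42 and OASL -0.39.

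DTX3L had 6.66, 5.81 and 5.85 FPKM in the controls and 7.49, 5.89 and 6.89 FPKM after I3. TRIM21, a cytosolic receptor for antibodies, had 7.66, 7.81 and 7.08 FPKM in the controls and 6.66, 5.27 and 8.43 FPKM after I3. I3 1 was highest for DTX3L, and for TRIM21 the I3 libraries held both the lowest and the highest value. The log2 fold changes were 0.13 for DTX3L (-0.11 to 0.37) and -0.16 for TRIM21 (-0.51 to 0.19), and those of the abundant members lay between -0.06 for IFITM2 and 0.15 for EIF2AK2. For STAT2 and TRIM25 they were 0.11 (-0.08 to 0.31) and 0.06 (-0.07 to 0.19). Single I3 libraries moved some of these values: TRIM21 was -0.002 without I3 2 and -0.32 without I3 3, DTX3L was 0.06 without I3 1 and 0.22 without I3 2, and STAT2 was 0.05 without I3 2 and 0.18 without I3 3.

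By role, no set held a member that passed the test. The RNA helicases IFIH1, DDX58 (RIG-I) and DHX58 were lower after I3 in 3 of 3, by log2 fold changes from -0.23 to -0.10, and each had its highest value in control 1. The tested IFIT genes were lower in 3 of 3 as well, from -0.15 to -0.10, again with control 1 highest for each. This direction rested on control 1 at least for IFIT1, which was 0.21 without it. Among the 7 tested genes of ubiquitin-like and ADP-ribose modification, 3 were higher and 4 lower, from -0.16 to 0.13. PARP14, an ADP-ribosyltransferase at 2.60 FPKM on average, was among the lower ones with -0.07. IRF1, a factor induced by interferon γ, kept to 1.2 to 1.43 FPKM in all 6 libraries.

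The libraries differed more from one another than the groups did, and control 1 stood apart for these genes. It held the highest value for 26 of the 43 members and for 17 of the 27 tested, beside 22.9% of all tested genes. The median log2 difference between control 1 and the mean of the other 5 libraries was 0.30 over the 27 members and 0.019 over all tested genes. Of the 27 members, 11 were among the 5% of tested genes with the largest such difference. Control 3 was low, with a median of -0.207 against -0.023 over all tested genes, and the remaining 4 libraries lay between -0.089 and 0.011. These figures describe single libraries, and no test was made of them.

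**Figure D3:**
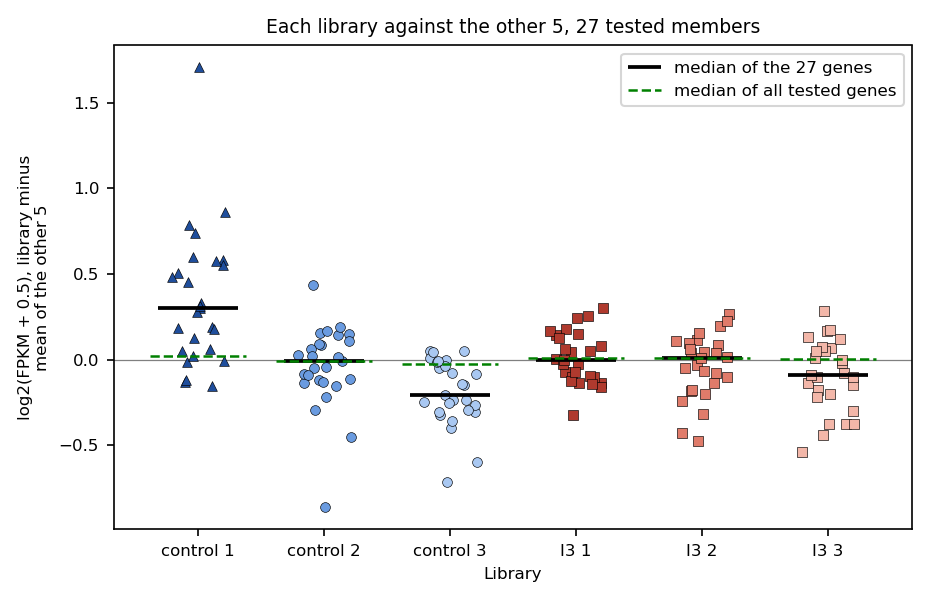
Difference of each library from the mean of the other 5 on log2(FPKM + 0.5), with 1 point for each of the 27 tested members, a black bar for their median and a dashed green line for the median of all tested genes. The members' median is 0.30 in control 1 and -0.207 in control 3, and the dashed lines stay near 0.

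IFI6, a small membrane protein that limits apoptosis, differed most. It had 17.4, 3.57 and 4.82 FPKM in the controls and 7.20, 5.07 and 4.89 FPKM after I3, from 266, 55 and 73 reads in the former and 111, 78 and 77 reads in the latter. Control 1 exceeded every other library, and the other 2 controls lay below all 3 I3 libraries. The reads of control 1 relative to those of control 2 and 3 gave a ratio of 4.15 with a 95% interval of 3.35 to 5.17. IFI6, BST2, IFIT1, ISG15 and IFITM1 were named for their spread within groups. Their ratios and intervals, which cover counting error only, therefore describe these libraries and test nothing. Of the 12960 tested genes, IFI6 had the 39th largest difference between control 1 and the other libraries, 1.70 on the log2 scale. None of its 50-base words occurs in another gene.

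BST2, or tetherin, which holds budding virus particles at the cell surface, had 3.04, 1.15 and 1.02 FPKM in the controls and 2.06, 2.01 and 1.23 FPKM after I3. IFIT1 had 1.44, 0.536 and 0.520 FPKM in the controls and 0.864, 0.609 and 0.608 FPKM after I3. ISG15 had 5.71, 3.76 and 2.18 FPKM in the controls and 2.86, 3.94 and 3.68 FPKM after I3. For all 3 control 1 was highest and control 3 lowest, so that the I3 libraries lay within the range of the controls. Control 1 relative to control 2 and 3 gave read ratios of 2.79 for BST2 (95% interval 1.85 to 4.23), 2.72 for IFIT1 (2.04 to 3.63) and 1.92 for ISG15 (1.43 to 2.57). The rebuilt reads of ISG15 were not whole within 0.1 read in every library, so its interval rests on rounded reads. IFITM1 had 5.08, 3.80 and 3.17 FPKM in the controls and 4.16, 4.01 and 2.60 FPKM after I3, with a ratio of 1.46 (1.11 to 1.91). It had its highest value in control 1 and its lowest in I3 3.

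Without control 1, the log2 fold changes after I3 were 0.40 for IFI6, 0.49 for BST2, 0.21 for IFIT1, 0.23 for ISG15, 0.02 for IFITM1 and 0.31 for EIF2AK2, against -0.25, 0.11, -0.10, -0.06, -0.15 and 0.15 with it. BST2 and EIF2AK2 then had an unadjusted p under 0.05, or 2 of 26 members, beside 11.0% of the genes tested in that fit. For 7 of the 26 the groups were then separate, beside 31.0%, and 0 members were called at the adjusted p by limma.

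By level, and with no test between the ranges, control 1 was highest for 1 of the 5 members with at least 10 FPKM (HERC5), for 11 of the 17 from 1 to 10 FPKM, for 5 of the 5 from 0.5 to 1 FPKM and for 9 of the 16 below the minimum. OASL is in the range from 0.5 to 1 FPKM through control 1, since its mean over the other 5 libraries was 0.491 FPKM. Over all genes of the first 3 ranges the share was 20.0%, 24.5% and 23.5%, and it was 21.7% over the 11020 genes below the minimum whose mean was at least that of IFI44L, the lowest member. ADAR, IFITM3 and TRIM25 were lower in control 1 than in the mean of the other libraries, by log2 differences of -0.15, -0.13 and -0.12. Among the untested members, IFIT5 had 15 reads in control 1 and 0, 1, 3, 1 and 2 in the others, and OAS3 had 101 reads and 43, 33, 63, 64 and 52.

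Control 1 was also set beside the response element, as a description with no test. For the 14 tested members with a match, the median log2 difference between control 1 and the other libraries was 0.397, and 10 had their highest value there. For the 8 with a window and no match these were 0.035 and 3. The ranges overlapped, from -0.13 to 1.70 with a match and from -0.15 to 0.45 without. Exceptions on both sides included IFITM3, with 2 matches and a difference of -0.13, and IFI35, with no match and 0.45. The tested members without a window, IFIT2, IRF7, OASL, DHX58 and IFITM2, entered neither set. Their differences were 0.60, 0.58, 0.55, 0.30 and -0.015, in that order. Among genes outside all lists, the 305 with a match had a median of -0.005 and 23.0% highest in control 1, and the 8530 without had 0.015 and 22.5%.

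**Figure D4:**
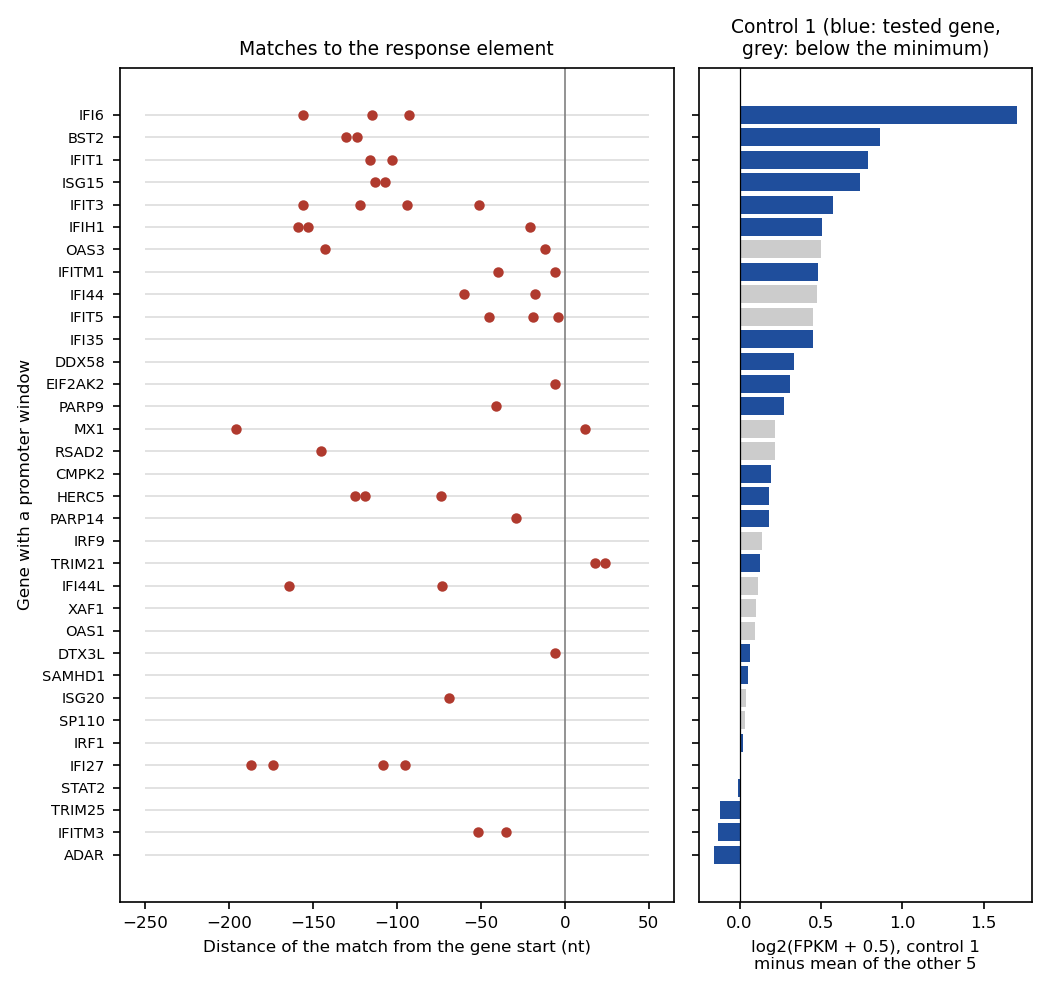
Left, position of each match to the response element in the 34 members with a promoter window, 1 row per gene. Positions are the distance in nt of the first base of a match from the start that the window covers. Right, the log2 difference between control 1 and the mean of the other 5 libraries for the same genes, in blue for tested genes and in grey for those below the minimum. The 4 largest blue bars, IFI6 at the top with 1.70, belong to genes with 2 or 3 matches, and IFITM3 near the bottom has 2 matches and a bar below 0.

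The libraries also differed in base composition. Across 12939 tested genes, the rank correlation between the GC content of a gene and its deviation from the mean was -0.313 in control 1, 0.446 in control 2, 0.337 in control 3, -0.232 in I3 1, 0.262 in I3 2 and -0.446 in I3 3. The points are genes of the same library, and no p is given. After removal of the trend, 15 of the 27 members were highest in control 1, beside 19.5% of all tested genes, and their median difference there was 0.212, against 0.30 before. What else the base composition contributed was not tested.

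Markers of other cell types were read in the same libraries. CLEC4C, TCF4, CD3G, MS4A1, HBB and COL3A1 were also listed as markers but had no value here, so the counts below leave them out. The 3 markers of plasmacytoid dendritic cells with a value summed to 3.84, 3.81 and 2.73 FPKM in the controls and 2.56, 3.42 and 3.44 FPKM after I3. These cells are a strong source of interferon. Nearly all of this sum was IL3RA, which myeloid cells also express, and LILRA4 and GZMB were listed at 0 in control 1. The 6 markers of T and NK cells summed to 0.822 to 1.67 FPKM, with 1.09 FPKM in control 1, led by NKG7. The 4 markers of B cells summed to 7.21 to 8.41 FPKM, with 7.36 FPKM in control 1, and CD79B was the most abundant. The 5 epithelial and stromal markers summed to 28.2 to 31.6 FPKM, nearly all of it EPCAM, and the 3 erythroid markers to at most 0.136 FPKM. VIM had 4, 0 and 0 reads in the controls and 0, 2 and 0 reads after I3. KRT18 was listed at 0 throughout, and its span overlaps that of KRT8 on the opposite strand. How reads of overlapping genes were counted is not known here, so this 0 cannot be read as absence of its mRNA. The part of other cells in the values of the members was not tested.

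The receptors and their kinases were present, and the 4 ligands with values were at or near 0. Of 21 interferon ligand genes listed, 4 were in the table, and IFNA5, IFNA21 and IFNW1 were listed at 0 in all 6 libraries. IFNB1 had 1 read in control 3 and 1 in I3 1. The other 17 had no value here, so nothing is said of their level. The receptor chain IFNAR1 had 11.1, 8.97 and 9.20 FPKM in the controls and 9.74, 9.39 and 11.1 FPKM after I3, and IFNAR2 had 2.63, 2.69 and 2.01 FPKM in the controls and 2.82, 2.70 and 2.80 FPKM after I3. The groups overlapped for IFNAR1. For IFNAR2 every I3 library was above every control, by a narrow margin of 222 reads in I3 2 against 221 in control 2. The group means differed by 0.16 ± 0.113 (standard error) on the log2 scale, with an adjusted p of 0.998 in limma.

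JAK1 had 20.1, 19.3 and 18.1 FPKM in the controls and 17.9, 18.1 and 18.9 FPKM after I3, and TYK2 had 17.6, 18.6 and 17.2 FPKM in the controls and 17.0, 19.0 and 16.6 FPKM after I3. Both kinases were about as abundant as each other, and neither separated the groups. PTPN6, the phosphatase SHP-1 that dampens receptor signalling, had 12.0, 13.2 and 12.4 FPKM in the controls and 10.9, 11.4 and 10.5 FPKM after I3. All 3 I3 libraries lay below all 3 controls. PTPN6 had a mean log2 difference of -0.19 ± 0.0636 (standard error), with an unadjusted p of 0.0207 and an adjusted p of 0.928 in limma. It was the 1 gene at an unadjusted p of 0.05 among the 16 tested of 18 listed receptor and signalling genes, beside 4.93% of all tested genes. The groups did not overlap for 2 of these 16, IFNAR2 and PTPN6, beside 9.7%, so both counts are near the share in the whole table. SOCS1, an inhibitor of the kinases, was below the minimum, with 3, 1 and 0 reads in the controls and 0 in every I3 library, so the groups overlapped.

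Upstream, 18 of 25 listed genes of nucleic acid sensing were tested, and 0 passed an unadjusted p of 0.05 in limma, beside 4.93% of all tested genes. The 51 further interferon induced genes that were listed, 31 of which were tested, also held 0 at that p. The groups did not overlap for MAVS among the former and for TRIM38 and SAMD9 among the latter, all higher after I3, beside 5.06% of all tested genes in that direction. These 3 genes are named after their values had been seen. Of those 31, 20 were higher and 11 lower after I3, and 13 had their highest value in control 1. Their median difference there was 0.087, against 0.30 in the 27 members. It was 0.099 over the 16 receptor and signalling genes, with 6 highest in control 1, and -0.101 over the 18 sensing genes, with 3. IFI16 stands in more than 1 of these lists.

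Outside all lists, the genes whose pattern over the 6 libraries was most like the mean of the 27 tested members were KRCC1, NREP, JUN, NFE2L2 and TPT1, with Pearson correlations of 0.987, 0.987, 0.980, 0.975 and 0.975 among 6583 genes of at least 5 FPKM. All 5 had their highest value in control 1, with JUN at 16.5, 11.3 and 10.4 FPKM in the controls and 12.4, 11.9 and 10.4 FPKM after I3. With 6 points that share their libraries and 1 library apart, these correlations are a description only.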

How the data were processed

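Polyadenylated RNA of Kasumi-1 cells was sequenced with a stranded kit, and the authors deposited 1 FPKM value for each gene and library. The submitters' processing notes name Trimmomatic, HISAT2, Cufflinks, HTSeq and hg38. The sources used here give no versions or roles and do not say how reads shared by overlapping genes were handled. All 6 columns were used. The table's name gives the compound as I13 and the labels give I3, and the study also mentions 72 h where the labels give 48 h.

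Reads were rebuilt from FPKM and GENCODE 29 exon lengths, and were whole within 0.1 read in all 6 libraries for 95.8% of 26519 genes. No library was a copy of another in its group, with a chi-square of their reads per degree of freedom of at least 4.93. Groups were compared with limma 3.58.1 in R 4.3.3, using a trended eBayes after lmFit, on log2(FPKM + 0.5). The fit covered the 12960 genes averaging 0.5 FPKM or more, with Benjamini-Hochberg adjustment and no covariates. Fold changes on this scale understate the change of low genes. The fit was also run on simulated data with independent noise for each gene. Those data held no shift shared by the genes of a library, so the run says nothing of such shifts. Single genes were also compared by two-sided exact permutation in scipy 1.17.1. Ratios of reads have exact 95% intervals. Promoter windows came from RefSeq GRCh38.p14.

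The members and lists were chosen with earlier results of these data known. Genes with values for each library were the 8 most abundant members, those whose groups did not overlap, the 8 smallest p, the 5 most variable within groups and the pathway core. Alternatives were pseudocounts, minimums, TPM, median-of-ratios scaling, no trend, a replicate block, a GC correction (lowess, span 0.3), each library left out and, chosen after the data had been seen, voom on rebuilt reads (mean of 10 reads or more). The values of 1 gene in the pathway lists are not reported here.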

Additional observations from a re-analysis of the deposited data

How the results depend on the processing

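With 3 libraries per group and control 1 apart from the rest, differences inside the 95% intervals were not detectable, and members under 0.5 FPKM rest on few reads. In all 18 alternatives 0 members were called at the adjusted p. The median log2 fold change, -0.075 as reported, ranged from -0.20 without control 3 to 0.044 with a minimum of 5 FPKM, and its sign also turned without control 1, to 0.008. The number of members at an unadjusted p of 0.05, 0 as reported, was 1 with no minimum FPKM (TRIM22, beside 3.90% of all genes in that fit) and 0 to 2 with single libraries left out. It was 2 without control 1 (EIF2AK2 and BST2, beside 11.0%), 1 without control 3 (IRF7, beside 3.84%) and 1 without I3 3 (TRIM21, beside 3.69%). With the replicate block it was 1 (IFIH1, beside 6.6%), and with the GC correction and the replicate block it was 2 (IFIH1 and HERC5, beside 7.38%). Whether the replicate numbers pair the libraries was not settled. The correlations of deviations at numbers 1, 2 and 3 were 0.063, 0.151 and -0.024. The value at number 2 was the largest over all pairs of a control and an I3 library. Control 1 correlated best with I3 3, at 0.101. These deviations still held the GC trends of the libraries.

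The number of members whose groups did not overlap, 1 as reported, was 2 with no minimum FPKM (beside 7.55% of all genes in that fit), 0 with a minimum of 5 FPKM (where fewer genes were tested), 2 with the GC correction (IFITM3 and HERC5, beside 10.9%, and no longer IFI35), 2 with that correction and the replicate block, and 2 to 7 with single libraries left out. It was 7 without control 1 and 6 without control 3, beside 31.0% and 16.3% of all genes, and that share was 16.1% to 31.0% over the 6 fits with a library left out.

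Some signs turned. SAMHD1 was 0.0050 after rescaling to TPM, and ISG15 was 0.0072 with the GC correction, with or without the replicate block. With single libraries left out, the log2 fold change ranged from -0.0064 to 0.080 for ADAR, -0.25 to 0.21 for IFIT1, -0.29 to 0.042 for IFITM1, -0.21 to 0.10 for IFITM2, -0.059 to 0.031 for SAMHD1, -0.38 to 0.23 for ISG15, -0.13 to 0.025 for HERC5, -0.12 to 0.49 for BST2 and -0.67 to 0.40 for IFI6. It kept its sign but moved for EIF2AK2 (0.032 without control 3 to 0.31 without control 1), IFITM3 (0.0012 without control 1 to 0.081 without control 2) and TRIM25 (0.024 without control 1 to 0.083 without control 2). IRF9 and TRIM22, below the minimum, had a value in the fit without a minimum only. Of 331 alternative values of the other 19 singly named members, 304 kept direction and side of the threshold, 20 turned and 7 passed an unadjusted p of 0.05. The causes were not tested.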

Other observations

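Guanylate binding proteins, GTPases that interferon γ induces, were outside the 43 genes and near the floor in these cells. GBP4 had 0.102, 0.0550 and 0.0560 FPKM in the controls and 0.238, 0.165 and 0.215 FPKM after I3. Every I3 library was above every control, which in either direction held for 7.55% of all genes in the fit without a minimum. In that limma fit its log2 fold change was 0.31, with an unadjusted p of 0.00741 and an adjusted p of 0.898, so it did not pass the correction, and 3.90% of all genes had an unadjusted p under 0.05. GBP1, GBP2, GBP3 and GBP5 had no unadjusted p under 0.05 in that fit. GBP4 is named after its values had been seen.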
